A study of Solanum tuberosum with 6 samples.

Results

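Transcripts of 3 potato genes for photorespiration and ammonium handling were examined in leaves: ferredoxin-dependent glutamate synthase (Fd-GOGAT, LOC102600112), the mitochondrial aminomethyltransferase that is the T protein of glycine cleavage (LOC102602939) and formamidase (LOC102591839). They are 3 of the 32768 genes in the count table. The 3 genes were chosen from the study's list of differentially abundant leaf proteins, with the C over D values of their transcripts in these same libraries already known, so their differences between bulks are given as a description and are not tested.

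Bulk C had low glycoalkaloids and high phytotoxic potential, and bulk D had low glycoalkaloids and low phytotoxic potential. Both were untreated leaves taken at full anthesis from greenhouse plants of the diploid population 15-1, a cross of a Solanum hybrid with S. chacoense. Equal leaf amounts of 3 F1 individuals were pooled in each bulk, and the plants of a pool cannot be told apart. The libraries used were C1, C2 and C3 of bulk C and D1 and D2 of bulk D, and D3 is not analysed here. The study calls the 3 replicates of a bulk biological, but describes the mixing of leaves once for each bulk and does not say that they were separate pools. P-values therefore measure the spread between these libraries, part of which may be technical.

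The bulk of C3 depends on how the header of the table is read. Its 7 names stand over a field of gene names and 6 fields of counts, and each name was taken to belong to the field on its right. With the names as they stand C3 would be a library of D, so results are also given without it and with it counted in D. The count column not used here would then bear a C name. It was left out there too, so that alternative covers only part of the other reading. The squared difference between the counts of 2 libraries, divided by that expected from sampling and averaged over genes with at least 20 counts in the pair, was 7.65 for C3 with C1 and 5.39 for C3 with C2, and 51.4 for C3 with D1 and 57.5 for C3 with D2. The pair D1 and D2 gave 10.8, so no pair of libraries was a repeat of the same counts.

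Between 22070364 and 22769554 reads were counted on genes per library. The label of leaf was checked with 27 genes of pigment binding and ribulose-bisphosphate carboxylase, taken from the study's gene ontology (GO) tables of these libraries. Their summed level was 55268 to 63697 CPM (counts scaled to a library total of 1000000) in C and 41482 to 47458 CPM in D, and 24 of the 27 were called higher in C and none lower by the test described below, with a median log2 FC of 0.47. Over all tested genes 15.8% were called higher and 18.6% lower, and as the markers were taken from those tables they are not independent evidence of a direction. A gene with patatin synonyms, the tuber storage protein (LOC102605260), had 0 counts in all 5 libraries, which allows up to 0.142 CPM in any of them. The part of these higher leaf markers in the results that follow was not tested. Fewer cells of a type and less RNA per cell cannot be told apart in pooled leaf.

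Photorespiration begins when Rubisco takes up oxygen in place of carbon dioxide. The product, phosphoglycolate, is salvaged through glycolate, glyoxylate, glycine, serine and hydroxypyruvate across chloroplasts, peroxisomes and mitochondria. In mitochondria the glycine cleavage complex and serine hydroxymethyltransferase turn glycine into serine and release carbon dioxide and ammonium. The ammonium is bound again in chloroplasts by glutamine synthetase and Fd-GOGAT, which form glutamine and then glutamate. In Arabidopsis, plants without the main leaf Fd-GOGAT grow poorly in air and recover in high carbon dioxide. Formamidase hydrolyses formamide to formate and ammonium, so that it is a further source of ammonium and of formate for one-carbon metabolism.

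Fd-GOGAT (SolTub_3.0, unplaced scaffold, positions 167566 to 213461) takes electrons from ferredoxin to make glutamate from glutamine and 2-oxoglutarate. It had 737 CPM in C1, 926 CPM in C2 and 869 CPM in C3, against 533 CPM in D1 and 517 CPM in D2. The lowest C library was 1.38 times the highest D library, and the bulks did not overlap. C1 was the low library of its bulk, with 15618 counts, against 21165 in C2 and 19169 in C3. The gene averaged 844 ± 97 CPM in C (SD, n = 3) and 525 ± 12 CPM in D (SD, n = 2), and the fitted log2 FC of C over D was 0.69 ± 0.11 (SE), a 1.61-fold higher level in C.

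The coefficient of variation of Fd-GOGAT among the C libraries was 11.5%, where counting alone would give 0.732%. On the log2 scale the SD within C was larger than that of 98.2% of the 114 tested genes whose mean log2 level lay within 0.5 of it. Within D the coefficient of variation was 2.26%, with counting alone at 0.902%. Without C1 the log2 FC was 0.76, and without C2 it was 0.61.

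Aminomethyltransferase (SolTub_3.0, unplaced scaffold, positions 1172487 to 1175810, RefSeq synonyms GCVT and GDCST) transfers the methylene group of glycine to tetrahydrofolate and sets the ammonium free. It had 783 CPM in C1, 732 CPM in C2 and 798 CPM in C3, against 431 CPM in D1 and 457 CPM in D2. Every C library was at least 1.60 times every D library, the widest gap of the 3 genes. Means were 771 ± 35 CPM in C (SD, n = 3) and 444 ± 18 CPM in D (SD, n = 2), with a log2 FC of 0.79 ± 0.09 (SE), a 1.73-fold higher level in C. Unlike Fd-GOGAT it varied little among the C libraries, with a coefficient of variation of 4.50% in C and 4.12% in D.

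Formamidase (SolTub_3.0, unplaced scaffold, positions 72182 to 78201) had 124 CPM in C1, 118 CPM in C2 and 117 CPM in C3, against 101 CPM in D1 and 104 CPM in D2. The bulks did not overlap, although the lowest C library was only 1.12 times the highest D library. Means were 120 ± 3.5 CPM in C (SD, n = 3) and 103 ± 1.8 CPM in D (SD, n = 2), with a log2 FC of 0.22 ± 0.08 (SE). The libraries of each bulk lay close together: the coefficient of variation was 2.96% in C and 1.73% in D, where counting alone would give 1.95% in C and 2.04% in D. The difference depended on the scaling of the libraries and was 0.12 on the log2 scale without it.

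**Figure D1:**
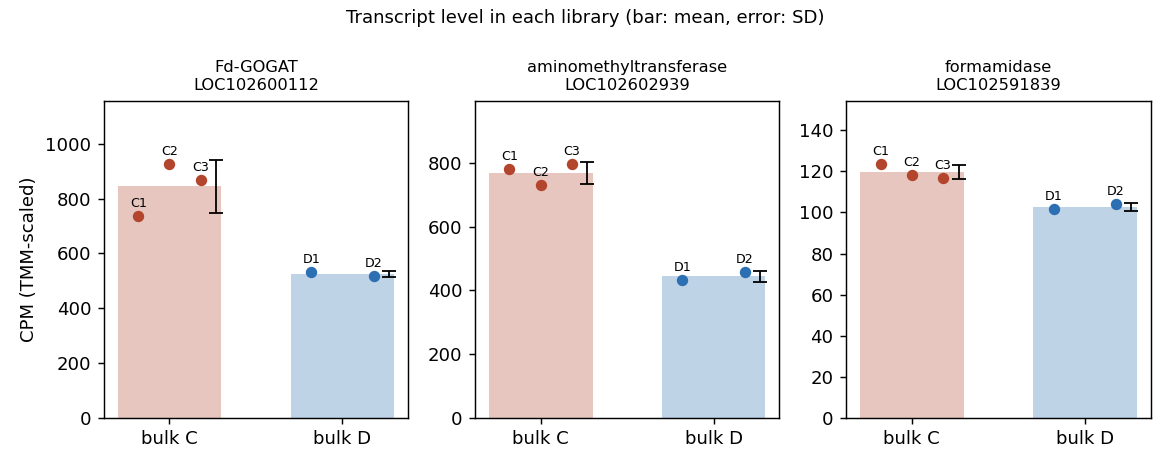
Level in CPM on TMM-scaled library sizes (vertical axis, each panel from 0) of Fd-GOGAT, aminomethyltransferase and formamidase in bulk C (left) and bulk D (right). Points are libraries, bars are means and error bars are SDs (n = 3 for C, n = 2 for D). Every C point lies above every D point in all 3 panels, with C1 the low C library of Fd-GOGAT.

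All 3 genes had every C library above every D library, as did 26.8% of the 19630 tested genes. Since the choice of the genes used this contrast, nothing is read from that count. The log2 FC was larger than that of 93.0% of tested genes for Fd-GOGAT, 94.7% for aminomethyltransferase and 71.6% for formamidase. By level, Fd-GOGAT exceeded 99.2% of tested genes in CPM, aminomethyltransferase 99.1% and formamidase 92.6%, a measure that is not divided by transcript length and so ranks reads rather than molecules.

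**Figure D2:**
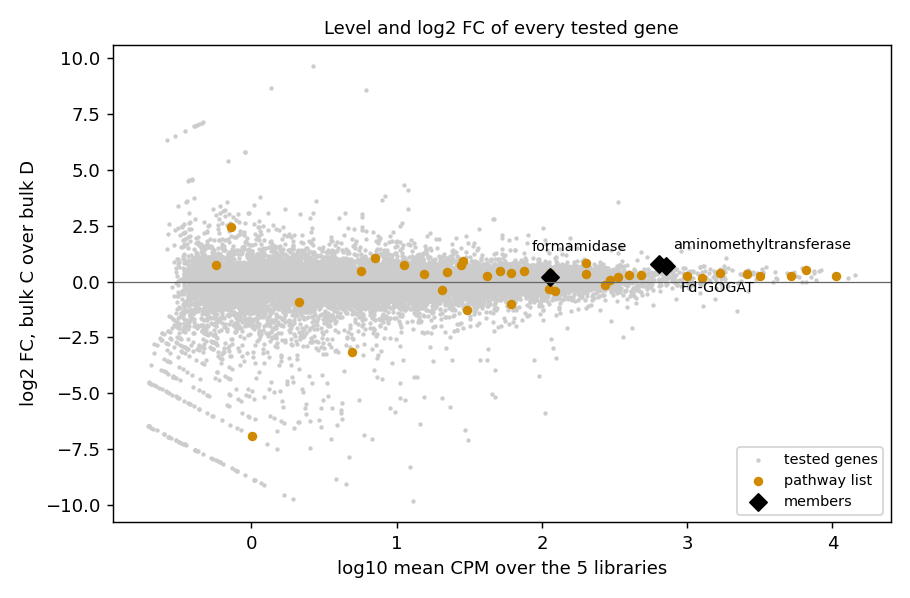
Level (log10 of mean CPM over 5 libraries, horizontal axis) and log2 FC of bulk C over bulk D (vertical axis) for every tested gene (grey), the other genes of the pathway list (orange) and the 3 chosen genes (black diamonds). Fd-GOGAT and aminomethyltransferase lie at 0.69 and 0.79 among the highly read genes and formamidase lies at 0.22; grey points along the lower left diagonals have no or almost no counts in C and their fitted values are not bounds.

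Within bulk C the log2 ratios of Fd-GOGAT to each of the other genes had an SD of 0.21. That of aminomethyltransferase to formamidase varied less, with an SD of 0.07. The log2 ratio of Fd-GOGAT counts to aminomethyltransferase counts was -0.09 in C1, 0.34 in C2 and 0.12 in C3, against 0.31 in D1 and 0.18 in D2, so that the bulks overlapped. The ratio of aminomethyltransferase to formamidase lay at 2.66, 2.63 and 2.77 on the log2 scale in C1, C2 and C3, against 2.09 and 2.14 in D1 and D2, without overlap. For Fd-GOGAT over formamidase it was 2.58, 2.97 and 2.89 in C, against 2.39 and 2.31 in D. The differences of these ratios between bulks follow from the log2 FCs given above. Those were known when the genes were chosen, so nothing is read from overlap or its absence.

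Each gene was also set against the leaf markers of its own library. These markers came from the study's GO tables of these libraries, and 24 of the 27 were called higher in C. Dividing by them therefore lowers C against D by construction, and levels and ranks against them are a description only. Per 1000 CPM of leaf markers, aminomethyltransferase had 12.3, 13.2 and 13.1 CPM in C1, C2 and C3, against 10.4 and 9.63 CPM in D1 and D2. Fd-GOGAT had 11.6, 16.8 and 14.2 CPM in C, against 12.9 and 10.9 CPM in D, and here the bulks overlapped. Formamidase had 1.94, 2.14 and 1.91 CPM in C, against 2.45 and 2.19 CPM in D, so that on this scale it was lower in C. Of the 27 markers, 6 had a larger log2 FC than Fd-GOGAT, 6 a larger one than aminomethyltransferase and 25 a larger one than formamidase.

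Around these genes a list of 39 others of the same steps was followed, 35 of them from tables that the study made from these libraries and 4 added by RefSeq symbol or synonym. The study describes those tables as holding differentially expressed genes and their GO terms. Those 35 are therefore not independent evidence of a direction or of a high share of calls. The enzyme of each is as the study's gene or GO tables give it. Genes were tested with edgeR's quasi-likelihood test and called at a Benjamini-Hochberg adjusted p under 0.05 over all 19630 tested genes. Of the 37 listed genes that were tested, 22 were called higher in C and 8 lower in C, where 15.8% of all tested genes were called higher and 18.6% lower. Their median log2 FC was 0.31, against -0.01 over all tested genes.

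By origin, 21 of the 33 tested genes from the study's tables were called higher and 7 lower. Of the 4 genes added by symbol 1 was called higher and 1 lower. Highly read genes of any kind were more often called higher: among all 4002 tested genes with a mean of at least 1000 counts 29.7% were called higher and 16.9% lower, against 13 and 3 of the 22 listed genes at that level. The count of 22 fell to 14 without C3, 12 without D1 and 13 without D2, and the count of 8 lower fell to 5 without D2. With C3 counted in bulk D and the unused column left out, edgeR called no gene of the list and none of all genes, where 1301 had an unadjusted p under 0.05.

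**Figure D3:**
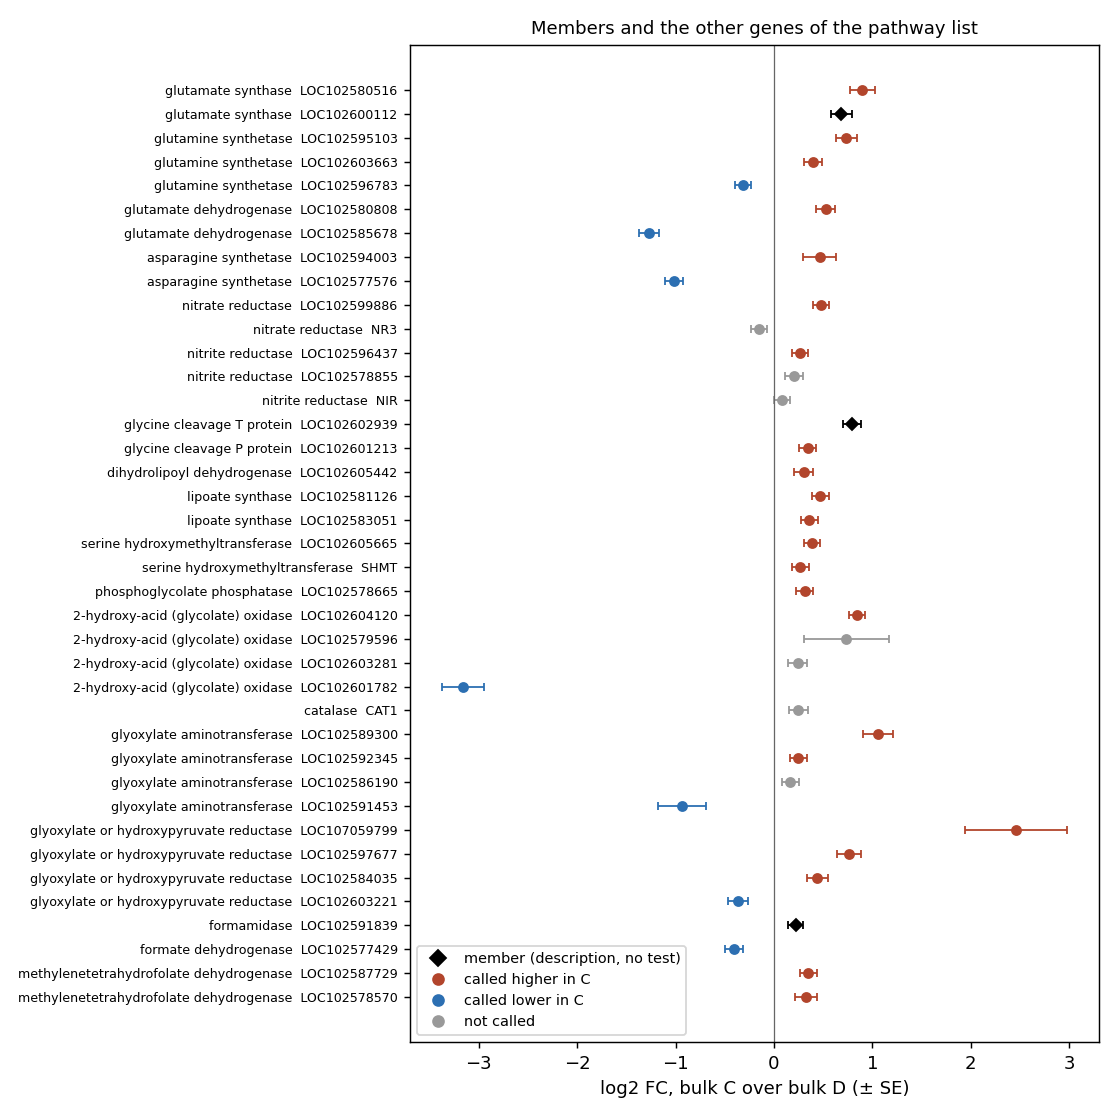
Log2 FC of bulk C over bulk D with its SE (horizontal axis) for the 3 chosen genes (black diamonds, not tested) and for 36 tested genes of the list, ordered by enzyme (vertical axis). Red points were called higher in C, blue points lower in C and grey points neither; a formate dehydrogenase gene without counts in 2 C libraries is left out. Most points lie between 0 and 1, and single genes of several enzymes lie below 0.

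The other glutamate synthase gene, LOC102580516, is named by the study as the NADH-dependent enzyme, which in plants serves ammonium assimilation mainly outside photosynthetic cells. It was called higher in C, at 31.6, 38.3 and 35.6 CPM in C1, C2 and C3, against 21.4 and 16.3 CPM in D1 and D2. Its log2 FC was 0.90 ± 0.13 (SE), with an adjusted p of 0.000283 by edgeR.

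Glutamine synthetase makes glutamine from glutamate and ammonium, ahead of Fd-GOGAT. Of its 3 listed genes 2 were called higher and 1 lower. The gene with the most reads, LOC102603663, averaged 1861 ± 65 CPM in C (SD, n = 3) and 1413 ± 87 CPM in D (SD, n = 2), with a log2 FC of 0.40 and an adjusted p of 0.00579 by edgeR that did not hold without D1. LOC102595103 had the largest change, with 34.4, 29.7 and 35.4 CPM in C1, C2 and C3, against 19.0 and 20.9 CPM in D1 and D2 and a log2 FC of 0.73. LOC102596783 went the other way, with 102 ± 3.3 CPM in C, 127 ± 2.9 CPM in D and a log2 FC of -0.32, a call that was lost without D2. The last of these lies outside the rule for named genes and was singled out after its values were seen. Reads summed over the 3 genes were 1.28 times as high in C as in D.

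Glutamate dehydrogenase, which in leaves mostly releases ammonium from glutamate, and asparagine synthetase, which stores amide nitrogen, each had 1 gene called in each direction. Of the dehydrogenase, LOC102580808 was called higher at 7540 ± 411 CPM in C and at 5244 ± 30 CPM in D. LOC102585678 was called lower at 19.6 ± 1.8 CPM in C, against 47.3 ± 0.66 CPM in D. Their log2 FCs were 0.52 and -1.27. The asparagine synthetase gene LOC102577576 had 46.7, 45.3 and 39.2 CPM in C1, C2 and C3, against 85.8 and 90.6 CPM in D1 and D2. Its log2 FC of -1.01 ± 0.09 (SE) had an adjusted p of 7.97e-06 by edgeR. The call of the higher gene, LOC102594003 (log2 FC 0.46, adjusted p = 0.0495 by edgeR), was lost with any 1 library left out, with DESeq2, with limma voom and with unscaled library sizes. This gene lies outside the rule for named genes and was picked out after its values were seen. The sum over both asparagine synthetase genes in C was 0.54 times that in D.

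Nitrate reductase and nitrite reductase supply ammonium from nitrate. The most read nitrate reductase gene, NR3, had 262 ± 6.9 CPM in C against 290 ± 13 CPM in D and was not called (adjusted p = 0.183 by edgeR), and LOC102599886 was called higher with a log2 FC of 0.48. NIR, a nitrite reductase by its symbol, had a log2 FC of 0.08 and was not called (adjusted p = 0.464 by edgeR), and its sign turned with unscaled library sizes. LOC102578855 had a log2 FC of 0.20 and was not called either. LOC102596437 was called higher with a log2 FC of 0.27, and this call was lost without any 1 of C2, C3, D1 and D2. Over the 13 listed genes of ammonium and nitrate assimilation, all tested, 7 were called higher and 3 lower. Among all tested genes 15.8% were called higher and 18.6% lower.

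The glycine cleavage complex consists of P, H, T and L proteins, and aminomethyltransferase is its T protein. The P protein, glycine decarboxylase (LOC102601213, RefSeq synonym gdcsP), was added by its synonym and not for its values. It had 2756, 2739 and 2899 CPM in C1, C2 and C3, against 2206 and 2210 CPM in D1 and D2, and was called higher with a log2 FC of 0.34 ± 0.09 (SE) and an adjusted p of 0.0111 by edgeR. Its call did not hold without C3 or without D2. The L protein is a dihydrolipoyl dehydrogenase, an enzyme also shared by other complexes, and the listed gene LOC102605442 was called higher with a log2 FC of 0.30, a call lost without any 1 of C1, C3, D1 and D2.

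Lipoate synthase makes the cofactor bound by the H protein. Both its listed genes were called higher, LOC102581126 with a log2 FC of 0.47 and LOC102583051 with one of 0.36, of which the second did not hold without D1. Serine hydroxymethyltransferase takes over the methylene group that the T protein passes to tetrahydrofolate. The most read gene, SHMT, averaged 3384 ± 100 CPM in C and 2810 ± 28 CPM in D, with a log2 FC of 0.27 whose call was lost without any 1 of C2, C3, D1 and D2. LOC102605665 had a log2 FC of 0.39 and was called with each library left out in turn, and the low-count gene LOC107058680 was not tested. The log2 FC of 0.79 of the T protein gene stood beside values of 0.27 to 0.47 for these listed genes of glycine cleavage and its neighbouring steps. The T protein gene was chosen with its value known, so nothing is read from that difference. The H protein was not among the listed steps.

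Upstream of glycine, phosphoglycolate phosphatase makes glycolate and glycolate oxidase makes glyoxylate and hydrogen peroxide. The phosphatase gene LOC102578665 was called higher, at 518 ± 17 CPM in C and 418 ± 1.8 CPM in D with a log2 FC of 0.31, and did not hold without C3, D1 or D2. Of the oxidases, the most read gene LOC102603281 had 5504 ± 325 CPM in C against 4661 ± 58 CPM in D and was not called (adjusted p = 0.0688 by edgeR). LOC102601782, named GLO4-like by the study, had 17, 27 and 34 counts in C1, C2 and C3, against 249 and 246 counts in D1 and D2. It was called lower with a log2 FC of -3.16 ± 0.22 (SE). LOC102604120, named GLO1-like, was called higher with a log2 FC of 0.85 and was picked out after its values were seen. Catalase CAT1, which breaks down peroxide, had a log2 FC of 0.25 and was not called (adjusted p = 0.0676 by edgeR).

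Glyoxylate aminotransferases make glycine, and hydroxypyruvate reductase returns the carbon towards glycerate. Of the aminotransferases, LOC102586190 was the most read and was not called, with a log2 FC of 0.17. LOC102589300 was called higher with 8.99 ± 0.63 CPM in C and 4.32 ± 0.12 CPM in D, a log2 FC of 1.06. Of the reductases, LOC102584035 was called higher with a log2 FC of 0.44, a call lost without D2. LOC107059799 had the largest change among them, a log2 FC of 2.46 from 31, 19 and 21 counts in C1, C2 and C3, against 6 and 3 counts in D1 and D2. It passed the expression filter only through its C counts, so nothing is read from its direction. Its call was lost with a filter at a mean of at least 100 counts. The aminotransferase LOC102591453 and the reductase LOC102603221 were called lower, with log2 FCs of -0.93 and -0.37, both lost without D2 and the second also without C2, and both were named after their values were seen. Of the 22 listed genes of photorespiratory carbon and glycine steps 20 were tested, and 13 were called higher and 3 lower. Over all tested genes 15.8% were called higher and 18.6% lower. The summed level of the 22 genes was 1.20 times as high in C as in D. Of the mean sum of 26804 CPM in C, CAT1 held 11202 CPM and the oxidase LOC102603281 held 5504 CPM. Neither of these was called, so the ratio mostly describes a few highly read genes.

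Formate, the other product of formamidase, is oxidised by formate dehydrogenase or enters folate metabolism. The formate dehydrogenase gene LOC102577429 was called lower, at 119, 105 and 104 CPM in C1, C2 and C3, against 137 and 152 CPM in D1 and D2, with a log2 FC of -0.40 ± 0.09 (SE) and an adjusted p of 0.00487 by edgeR. LOC102581996, named by the study for the same enzyme, had 1, 0 and 0 counts in C1, C2 and C3, against 90 and 30 counts in D1 and D2. Its level in C was at least 17.7-fold lower than the mean of D, taking 3 counts in the shallowest C library as the floor. Without D1 this limit was 9.53-fold. The gene was among the 8 called lower, but it passed the expression filter only through its D counts. This call was lost with a filter at a mean of at least 100 counts. The bifunctional methylenetetrahydrofolate dehydrogenases pass one-carbon units between folates. Both listed genes were called higher, and the more read, LOC102587729, had a log2 FC of 0.35 and a call that did not hold without D1. The call of the other, LOC102578570 (log2 FC 0.32, named after its values were seen), was lost with any 1 library left out, with DESeq2 and with unscaled library sizes.

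Of the 5 tested genes next to the 3 in the annotation 1 was called higher and 2 lower, where 15.8% of all tested genes were called higher and 18.6% lower. With so few genes nothing is read from that count. Before Fd-GOGAT, LOC102599782 was called lower with a log2 FC of -0.58, and after it LOC102600449 had a log2 FC of 0.65, with every C library above every D library, and was not called (adjusted p = 0.0715 by edgeR). Aminomethyltransferase lies 1513 bp after LOC102602600, which was called lower with a log2 FC of -0.34, and 3755 bp before LOC102603510, with a log2 FC of -0.04 and no call. On the far side of formamidase, 3128 bp away, LOC102592166 is named by the study as LOB domain-containing protein 37, whose Arabidopsis relative represses genes of nitrate uptake and assimilation. It had 38.8, 32.7 and 35.4 CPM in C1, C2 and C3, against 16.4 and 18.5 CPM in D1 and D2. This gene was called higher with a log2 FC of 1.03 ± 0.11 (SE) and an adjusted p of 2.96e-05 by edgeR. The gene before formamidase, the long non-coding RNA LOC107062315, was not tested, with 3, 2 and 1 counts in C and none in D.

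The 3 tested genes most like each of the members were found by the root mean square difference of centred log2 levels over the 5 libraries, among 13433 other genes with a mean of at least 100 counts. For Fd-GOGAT they were LOC102596358, LOC102596826 and LOC102596711, at 0.01 to 0.03. LOC102596358, placed by the study's GO table in nucleocytoplasmic transport, had 34.4, 43.3 and 39.8 CPM in C1, C2 and C3, against 24.9 and 24.0 CPM in D1 and D2. Its low C1 follows from the choice of genes by closeness over these libraries. For aminomethyltransferase the 3 were LOC102585095, LOC102600616 and LOC102591654, at 0.02 to 0.03, of which the study names the first for an aspartic protease of guard cells and the last for a lipase. For formamidase they were LOC102604479, LOC102584225 and LOC102596919, all at 0.01. None of these 9 genes is on the pathway list, which holds only 39 of the 32768 genes, so nothing is read from that. With 5 libraries a close match describes these libraries only.

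**Figure D4:**
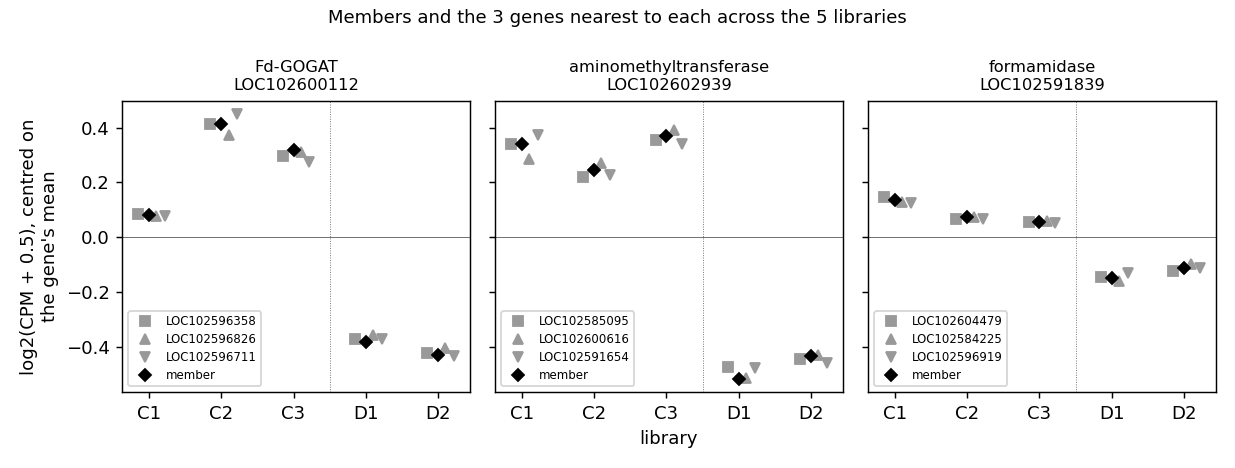
Log2 of CPM plus 0.5, centred on each gene's mean (vertical axis), in libraries C1, C2, C3, D1 and D2 (horizontal axis) for the 3 chosen genes (black diamonds) and the 3 genes nearest to each (grey). Fd-GOGAT has its low C value in C1, and its nearest genes share it because they were picked for closeness over these libraries. The aminomethyltransferase and formamidase panels show smaller differences among the C libraries.

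With each library left out in turn, the log2 FC ranged over 0.61 to 0.76 for Fd-GOGAT, 0.75 to 0.84 for aminomethyltransferase and 0.18 to 0.24 for formamidase. Without C3 it was 0.66 for Fd-GOGAT, 0.77 for aminomethyltransferase and 0.24 for formamidase. With C3 counted in bulk D and the unused column left out, Fd-GOGAT had a log2 FC of 0.38, aminomethyltransferase 0.43 and formamidase 0.17.

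**Figure D5:**
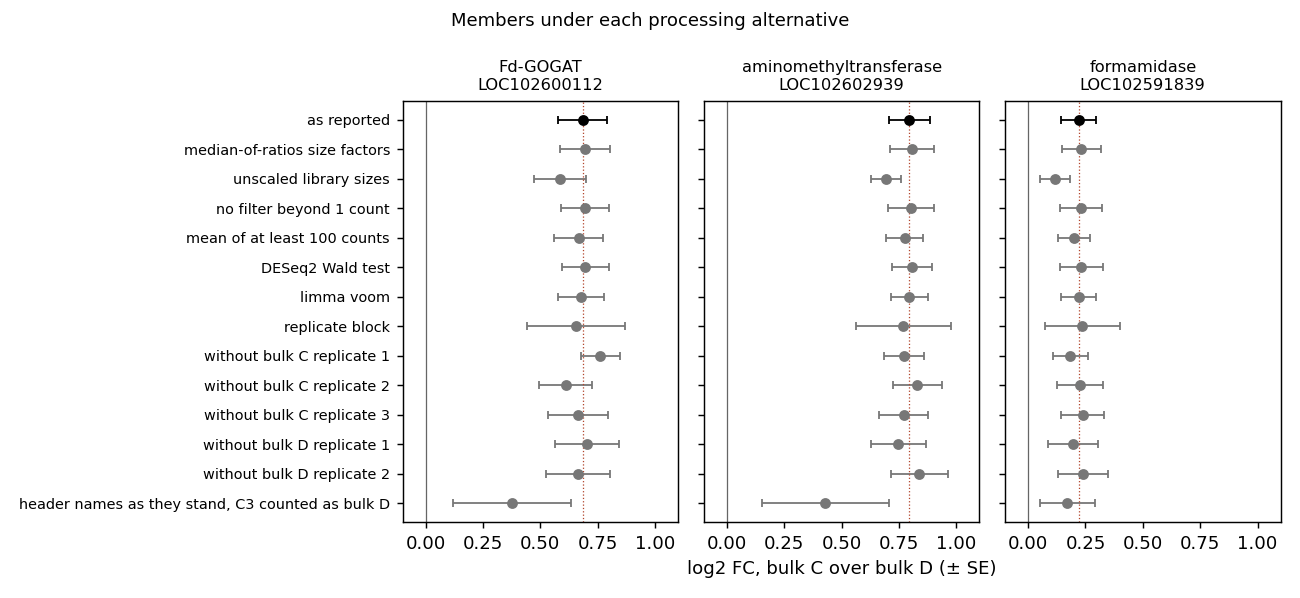
Log2 FC of bulk C over bulk D with its SE (horizontal axis) of the 3 chosen genes under each way of processing the counts (vertical axis), with the reported value as a dotted line. All values lie above 0, the lowest for Fd-GOGAT and aminomethyltransferase, 0.38 and 0.43, with C3 counted in bulk D and the lowest for formamidase, 0.12, with unscaled library sizes.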

How the data were processed

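The authors sequenced leaf RNA of the pooled samples as 100-bp paired-end reads from directional libraries, and aligned them to SolTub_3.0 with TopHat2 2.0.9 and Bowtie2 2.1.0 (submitters' processing notes). The deposited values are raw counts of reads per gene from HTSeq, not normalized by the authors. The strand setting of the counting is not given in the sources used here. Of the count columns 1 was not used. The reading of the header, by which each name stands 1 field left of its counts, does not rest on the names alone, since earlier work on this table compared its values with the study's results.

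Counts were scaled by TMM, and the 19630 genes passing edgeR's expression filter (at least about 10 counts in 2 libraries and 15 in all) were tested with edgeR 4.0.16 in R 4.3.3 (quasi-likelihood test, group as the only term, Benjamini-Hochberg adjustment). The step was tested on simulated data with a dispersion of 0.00854 for every gene. Of 100 genes changed by 0.5 on the log2 scale 53 were called in the right direction, and of 100 changed by 1 all 100 were. Smaller changes were not simulated, so a gene that was not called may still differ. The floor was 3 counts. Counting error is the only error it covers. DESeq2 1.42.0, limma 3.58.1 (voom) and other filters, scalings and library choices were alternatives. The study used the DESeq package.

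The members and lists were chosen with earlier results of these data known. Named genes are the members, the other glutamate synthase, of each other step the gene with the highest mean CPM and the called gene with the largest absolute log2 FC, the 3 genes nearest in pattern to each member, and tested annotated neighbours. RefSeq symbols matched 32736 genes. RefSeq gives these genes no chromosome, and neighbours follow its row order. Transcript lengths and sequences were not used here, so ranks and sums of level over different genes are of reads and not of molecules, and no sequence is shown.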

Additional observations from a re-analysis of the deposited data

How the results depend on the processing

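The log2 FCs of the 3 members stayed above 0 under all 13 alternatives. Unscaled library sizes moved the median log2 FC of all genes by -0.10; 46.0% of calls were higher in C with TMM and 29.4% unscaled, with 1966 genes called higher, and gave 0.69 for aminomethyltransferase and 0.12 for formamidase. Relative to the median of all genes these were 0.80 and 0.23 both with TMM and unscaled. Counting C3 in bulk D gave 0 calls higher and 0 lower by edgeR, over all genes and on the pathway list alike, with 1301 genes at an unadjusted p under 0.05; other tools were not run on that reading. Log2 FCs were then 0.38 for Fd-GOGAT, 0.43 for aminomethyltransferase and 0.17 for formamidase, and the leaf marker median was 0.27. At an adjusted p under 0.01, 1748 genes were called higher and 2320 lower, and 14 of the pathway list higher. An absolute log2 FC of at least 1, added after seeing the data, left 537 higher and 1300 lower, and 2 and 4 of the list. Leaving out single libraries gave 2029 to 3038 genes higher (3111 with all) and 2394 to 3811 lower (3649 with all), and 12 to 19 of the list higher and 5 to 8 lower. With 1 library of D left, it was assumed to vary like those of C.

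When the fit took the replicate number as a block, 1396 genes were called higher and 2052 lower, and 8 and 4 of the list. The sources do not say whether libraries of the same number were handled together, and C3 has no partner. Across genes the difference of C1 and C2 correlated with that of D1 and D2 at r = -0.455, where genes are not independent replicates. What lies behind that correlation was not tested. Extending the list by protein similarity could not be run, since no proteins were used here. Of the 30 calls on the list, 10 were lost only with C3 counted in bulk D. Depth limits the genes of few counts, such as LOC107058680 and LOC102606127, which were not tested.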
